A study of Drosophila melanogaster with 66 samples.

Results

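Heat shock proteins are chaperones, which hold or refold other proteins, and 9 of their genes in Drosophila melanogaster were followed here through every group of a study of flies that lack insulin-producing cells. The genes were chosen by symbol in the annotation of the array: Hsp22, Hsp23, Hsp26, Hsp27, Hsp67Bc, Hsp68, Hsp83, Hsp60A and DnaJ-1. Of the 9, 5 had a probe set of their own (Hsp26, Hsp27, Hsp68, Hsp60A and DnaJ-1), out of 11982 genes so measured in all. Hsp22 was covered by 2 probe sets that the annotation pairs with CG4456 as well, so their values are given as shared and not as those of Hsp22. CG4456 is another symbol for the heat shock gene Hsp67Bb. Hsp23, Hsp67Bc and Hsp83 had no probe set in the annotation used and were not analysed here. Each of the 5 genes had 1 probe set, so no choice between probe sets was needed.

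The study profiled total RNA of whole adult flies, pooled for each extraction, on 66 Affymetrix arrays in 20 groups, 10 for each sex, with 3 or 4 arrays in a group. The founders (F0) had the genotype rpr/cyo; dilp3/ser in a w1118 background, in which the ilp3-GAL4 driver expresses the death gene rpr from UAS-rpr in the insulin-producing cells of the brain, and CyO-YFP and Ser-GFP are balancer chromosomes. The F1 came from founder males and w1118 females and held siblings of 4 genotypes: rpr/+; dilp3/+ with both constructs, rpr/+; ser/+ and cyo/+; dilp3/+ with 1 construct each, and cyo/+; ser/+ with neither. The F2 and F3 test flies carried no construct and descended through males from the test lineage, and each generation had w1118 controls, of which the F1 controls also served the founders. The design text calls that control group F0 and the sample labels call it F1, and the label is used here. The age of the flies was not given beyond collection in the first days of eclosion.

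Small heat shock proteins such as Hsp26 and Hsp27 bind unfolding proteins without using ATP, and in Drosophila both genes are also active in the ovary without any heat. Hsp68 is a heat-inducible member of the Hsp70 family, which folds proteins in cycles of ATP binding, and DnaJ-1 is a J-domain co-chaperone that delivers clients to Hsp70. Hsp60A encodes the chaperonin of the mitochondrial matrix. Most of these genes are under the heat shock factor, and in flies the transcription factor FOXO, which insulin signalling restrains, is also known to act on small heat shock protein genes. Hsp26 and Hsp27 lie in a cluster on chromosome arm 3L together with Hsp22, Hsp23 and Hsp67Bc, DnaJ-1 lies elsewhere on 3L, Hsp68 on 3R and Hsp60A on X.

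Levels are log2 GCRMA values as deposited, for which a difference of 1 is a 2-fold difference, and the floor of the scale is 2.2305. The transcripts of the insulin peptide genes checked for the ablation were near that floor: Ilp2 ran from 2.23 to 4.62 over all 66 arrays, and its levels in flies with both constructs overlapped those of the F1 controls. Sex labels were checked with marker lists. The mean level of 8 accessory gland genes was 10.61 or more on every male array and 3.04 or less on every female array, and the mean of 12 testis genes was at least 8.74 in males and at most 3.58 in females. The mean of 16 measured ovary and eggshell genes was 8.85 or more on all but 2 of the female arrays and 3.11 or less on all but 1 of the male arrays. These 3 exceptions were all of the F2 generation. The female arrays numbered 2 read 5.02 (control) and 7.36 (test), against 12.51 to 12.74 on the other F2 female arrays, and the male control array numbered 3 read 10.298. The eggshell gene Cp15 was 2.67 and 8.55 on those 2 female arrays, against 13.84 to 14.31 on the others, and 12.38 on that male array, against 2.66 to 2.77 on the other F2 male arrays. In the F2, results that rest on these 3 arrays are given with and without them. The arrays also enter the fits shared with other groups, whose results are mostly given with them in. In whole-fly RNA, fewer cells of a type and less RNA per cell cannot be told apart.

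The largest difference in the 5 genes was between the sexes. Hsp26, Hsp27 and Hsp60A were lower in males than in females in all 3 generations of w1118 controls, and Hsp68 was higher in males of the F2 and F3. By limma's moderated test in a fit of all 66 arrays with Benjamini-Hochberg adjustment, 3 of the 5 genes were called in the F1 controls, 4 in the F2 and 5 in the F3. The share of all 13420 tested entries called in these comparisons was 51.3% in the F1, 51.9% in the F2 and 61.7% in the F3 and the counts of the 5 genes are read against that background.

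Hsp26 stood at 12.92, 11.78 and 12.73 on the 3 female F1 control arrays and at 9.13, 9.95 and 9.999 on the male ones. In the F3 controls it was 12.97, 12.199, 12.79 and 12.99 in females and 9.82, 9.67, 9.01 and 8.53 in males. Females and males did not overlap in either generation. The group means were 12.48 ± 0.61 and 9.69 ± 0.49 (SD, n = 3 each) in the F1, a 6.90-fold ratio, and 12.74 ± 0.37 and 9.26 ± 0.60 (SD, n = 4 each) in the F3, a 11.1-fold ratio. The fitted male minus female difference was -2.62 ± 0.72 (standard error, adjusted p = 0.00186) in the F1 and -3.24 ± 0.64 (adjusted p = 1.88e-05) in the F3. Without the 3 F2 arrays that stand apart, which share this fit, it was -2.85 ± 0.44 and -3.54 ± 0.39.

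Hsp27, the neighbour of Hsp26 in the same gene family, followed the same order. Its level was 12.84, 11.68 and 12.74 in F1 control females and 9.59, 9.27 and 10.04 in F1 control males. In the F3 controls it was 12.89, 12.33, 13.02 and 13.27 in females and 9.87, 9.75, 9.63 and 9.66 in males. Again the sexes did not overlap in these generations, with fitted differences of -2.55 ± 0.66 (adjusted p = 0.00114) and -2.82 ± 0.59 (adjusted p = 5.03e-05). Without the 3 F2 arrays the fitted differences were -2.78 ± 0.35 and -3.11 ± 0.32. The ratio of the group means was 6.88-fold in the F1 and 8.87-fold in the F3.

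Hsp60A, the mitochondrial chaperonin gene, differed less in size and with less spread. F1 control females had 12.33, 11.86 and 12.55 and males 10.84, 10.91 and 10.82. F3 control females had 12.49, 12.31, 12.27 and 12.34 and males 10.89, 10.67, 10.55 and 10.47. No male array reached a female one, over all 66 arrays as well: the highest male value of Hsp60A was 11.30 and the lowest female value 11.42. The fitted difference was -1.33 ± 0.23 in the F1 (adjusted p = 2.46e-06), -1.17 ± 0.21 in the F2 (adjusted p = 8.5e-06) and -1.57 ± 0.20 in the F3 (adjusted p = 3.88e-09), which is 2.21-fold to 3.26-fold as a ratio of group means.

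Hsp68, the inducible Hsp70 relative, ran the other way. In the F3 controls it was 5.89, 6.08, 6.25 and 5.27 in females and 8.48, 8.27, 7.36 and 7.34 in males, with no overlap and a fitted difference of 1.70 ± 0.56 (adjusted p = 0.00749). In the F1 controls the female values of 5.92, 8.14 and 6.18 overlapped the male values of 7.38, 8.46 and 7.90, and the difference of 1.05 ± 0.63 did not pass (adjusted p = 0.169). With replicate number added to the fit as a block, the F1 difference was 1.08 ± 0.39 and passed (adjusted p = 0.0164).

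DnaJ-1, the J-domain co-chaperone, was the least different between the sexes. Its level in F3 controls was 11.95, 11.84, 12.03 and 11.90 in females and 11.85, 11.61, 10.90 and 10.79 in males, so that 1 male array fell within the female range. The F3 difference of -0.79 ± 0.35 passed narrowly (adjusted p = 0.0448), and it did not pass in 11 of 21 alternative settings, with adjusted p up to 0.163. The intervals for the F1 (-1.08 to 0.50) and the F2 (-0.89 to 0.60) included 0.

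The F2 controls held the arrays that stand apart, and there the sex difference depended on them. Hsp26 was 12.87, 8.26 and 12.72 on the 3 female arrays and 8.76, 8.27, 10.25 and 9.95 on the 4 male arrays. The female array with low ovary transcripts thus read as low as the lowest male, and the male array with ovary transcripts read highest of its group. Over all F2 arrays the fitted difference was -2.13 ± 0.68 for Hsp26 (adjusted p = 0.00667), -1.84 ± 0.63 for Hsp27 (adjusted p = 0.0114) and 1.74 ± 0.60 for Hsp68 (adjusted p = 0.0123). Without the 3 arrays it was -4.19 ± 0.50 for Hsp26, -3.87 ± 0.40 for Hsp27 and 2.68 ± 0.66 for Hsp68, and all 3 passed again. Within batch 3, which held 1 control array of each sex in the F2, and both of them are among the 3, Hsp26 was higher in the male array by 1.99 and Hsp27 by 2.21. Within batch 1 of the F2, the male minus female difference was -4.52 for Hsp26 and -3.86 for Hsp27, and within batch 2 of the F3 it was -3.56 and -3.33. Both batches of the F1 controls gave the same direction, -3.23 and -2.73 for Hsp26 and -2.66 and -2.70 for Hsp27.

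**Figure D1:**
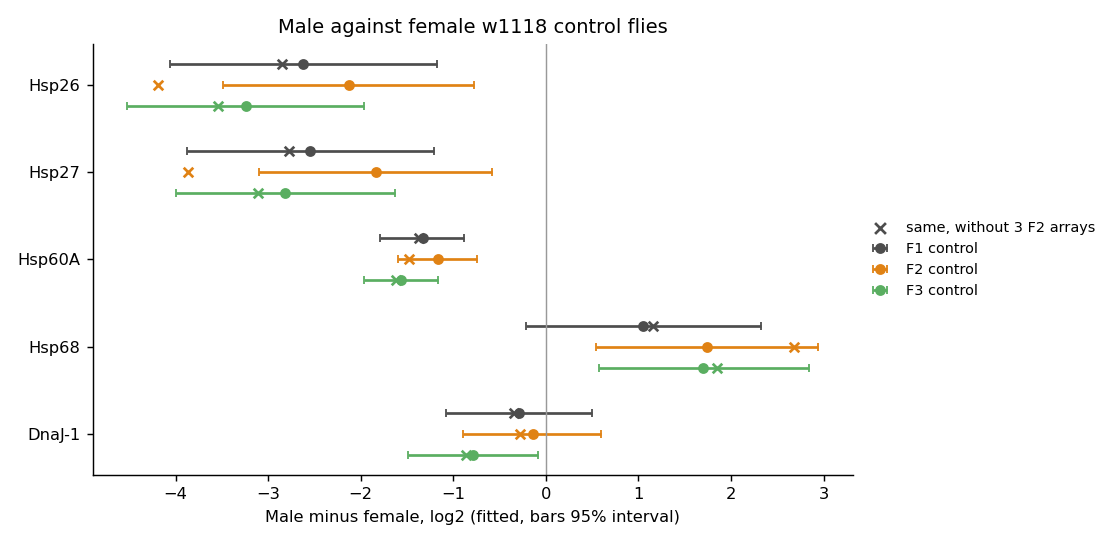
Fitted male minus female difference (x axis, log2) of the 5 genes in the w1118 controls of each generation, with bars for the 95% interval of the fit of all 66 arrays and crosses for the fit without the 3 F2 arrays that stand apart. Hsp26, Hsp27 and Hsp60A lie left of 0 in every generation, from -1.17 to -3.24, and Hsp68 lies right of 0, while the F2 crosses of Hsp26 and Hsp27 lie at -4.19 and -3.87.

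Hsp26, Hsp27 and Hsp60A were low on the female arrays with low levels of the ovary and eggshell transcripts. On the 2 F2 female arrays with low ovary transcripts, Hsp27 was 8.34 and 9.45, against 12.99 to 13.11 on the other 4 F2 female arrays, Hsp26 was 8.26 and 9.24, against 12.65 to 12.87, and Hsp60A was 11.42 and 11.58, against 12.19 to 12.26. Hsp68 was 7.99 and 7.96 there, against 5.80 to 5.96. These levels of Hsp68 and that of Hsp26 on the test array lie within the male range, Hsp26 and Hsp27 of the control array lay below every male array, and Hsp60A stayed above every male array. On the F2 male control array with ovary transcripts, Hsp27 was 10.55, the highest of the 34 male arrays, Hsp26 was 10.25, and Hsp60A, at 10.85, was within the range of the other 3 control males of 10.49 to 11.01. Other tissue markers moved on the same 2 female arrays: the mean of 6 flight muscle genes was 13.34 and 13.01, against 10.81 to 11.84 on the other F2 female arrays, and that of 3 fat body genes 12.26 and 12.52, against 9.82 to 10.95. The part of the ovary, muscle or fat body transcripts in these differences was not tested.

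In the F0 and F1 females the arrays numbered 2 had lower ovary transcripts in all 6 groups: the ovary list ran from 8.85 to 11.50 there, against 11.82 to 12.44 on the arrays numbered 1 and 12.16 to 12.68 on those numbered 3. The mean of 5 gut genes was also lower there, at 6.90 to 9.88 against 10.08 to 11.32 on the arrays numbered 3, and it ran from 7.51 to 10.81 on those numbered 1. Hsp26 averaged 11.81 ± 0.45 on the arrays numbered 2 and 12.88 ± 0.15 on those numbered 3 (SD, n = 6 each). On the arrays numbered 1 it ran from 11.54 to 12.92, so it was low on some arrays without low ovary transcripts. Across the 6 arrays numbered 2, Pearson's r with the ovary list was 0.89 for Hsp26 (Spearman's rho 0.77), 0.86 for Hsp27 (rho 0.71) and 0.92 for Hsp60A (rho 0.83). By exact permutation of the pairings the unadjusted p of r was 0.0222, 0.0319 and 0.00972, and none passed after Benjamini-Hochberg adjustment over the 18 relations computed (adjusted p of r at least 0.175; rho p at least 0.0583 unadjusted and 0.612 adjusted). Without the 2 arrays farthest from the median of the list, r was 0.31, -0.10 and 0.74, so it was lower for Hsp26 and Hsp27. Leaving them out also narrows the range of the list and leaves few arrays. What the relation rests on therefore cannot be told from these values. Within the arrays numbered 1, r was 0.18 for Hsp26, 0.11 for Hsp27 and 0.19 for Hsp60A (rho 0.37, 0.54 and 0.20), and within those numbered 3 it was 0.07, 0.69 and 0.37 (rho 0.37, 0.60 and 0.37), with exact permutation p of at least 0.1 for r and 0.242 for rho before adjustment, and 0.45 and 0.725 after it. The part of the gut transcripts was not tested. No pooled correlation is given, because the arrays fall into separate ranges by number.

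**Figure D2:**
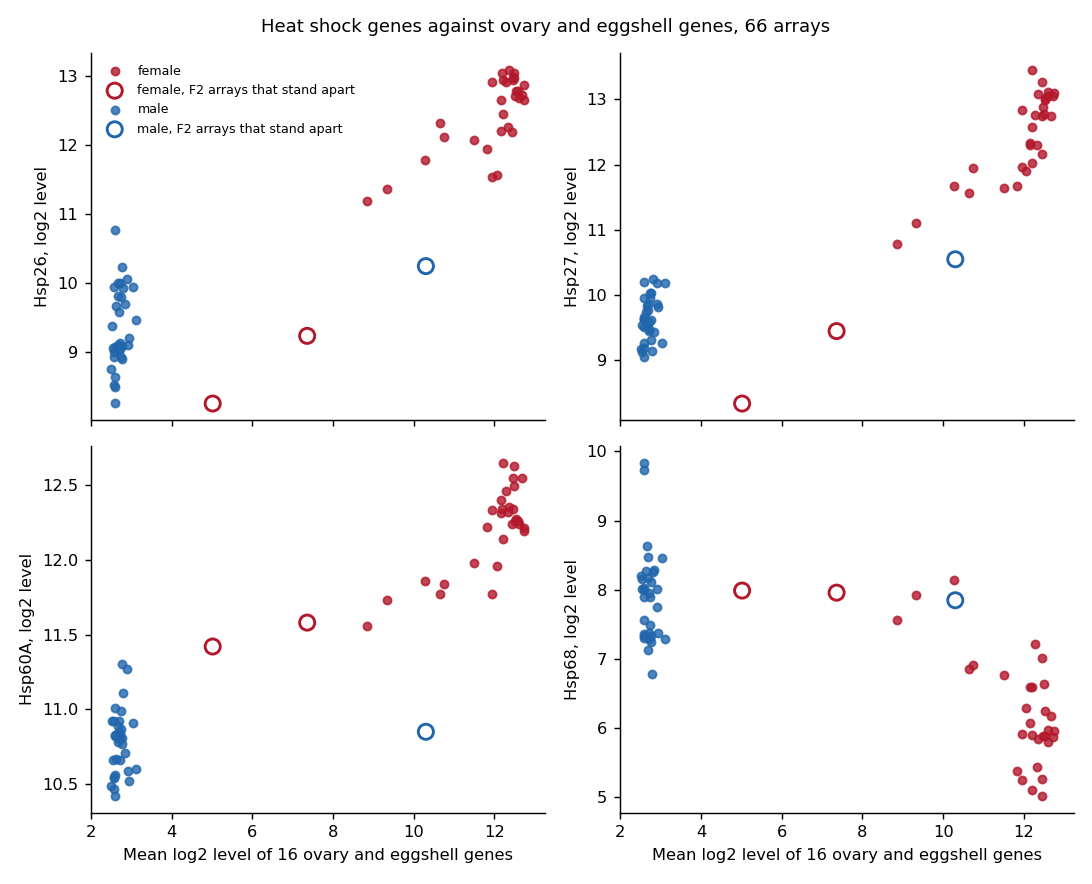
Level of Hsp26, Hsp27, Hsp60A and Hsp68 (y axes, log2) against the mean level of 16 ovary and eggshell genes (x axis, log2) on each of the 66 arrays, females in red and males in blue, with the 3 F2 arrays that stand apart as open circles. The 2 open female circles, at 5.02 and 7.36 on the x axis, lie at 8.26 and 9.24 for Hsp26 and at 7.99 and 7.96 for Hsp68, below all other females for Hsp26 and within the male range for Hsp68.

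The comparison at the centre of the study, flies with both constructs against w1118 controls, showed no called change in any of the 5 genes in either sex. In founder females Hsp26 was 11.94, 12.32 and 12.65 and Hsp27 11.68, 11.57 and 12.30, within or next to the control values given above, and both groups overlapped. Their fitted differences from the control were 0.52 ± 0.70 and 0.21 ± 0.66, opposite in sign to the differences of the group means of -0.17 and -0.57 and to the fit with the replicate block, -0.11 and -0.47. In F1 females with both constructs Hsp26 was 12.19, 12.07 and 12.95 and Hsp27 12.17, 11.64 and 12.74, with fitted differences of -0.11 ± 0.67 and -0.27 ± 0.63. The lowest adjusted p of the 5 genes was 0.733 for founder females, against 0.828% of 12809 entries called, and it rounded to 1 for F1 females with both constructs, against 0.117%.

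In males, too, no gene of the 5 was called. Founder males had Hsp27 at 9.62, 10.19 and 9.95 and F1 males with both constructs at 9.49, 9.86 and 9.78, overlapping the control males. The fitted differences were 0.28 ± 0.34 and 0.07 ± 0.34, and 0 of the 5 genes were called in founder males (3.43% of 11357 entries called) or in F1 males with both constructs (0.22%). Hsp68 had the most negative estimates, -0.89 ± 0.59 in founder females and -0.50 ± 0.52 in founder males, with adjusted p of 0.733 and 0.769. The male minus female difference of the effect was called for 0 of the 5 genes, at 0.119% of entries for the founders and 0.0596% for F1 flies with both constructs.

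The width of the intervals differed by gene. Over the 8 comparisons of founders, F1 flies with both constructs, and F2 and F3 test flies with their controls, the 95% intervals of Hsp60A ran from -0.47 to 0.44, and those of DnaJ-1 from -1.12 to 0.83. For Hsp27 they reached from -1.59 to 1.68, for Hsp26 from -1.50 to 1.99 and for Hsp68 from -2.12 to 1.08. Each fit held the F2 arrays of its sex that stand apart.

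**Figure D3:**
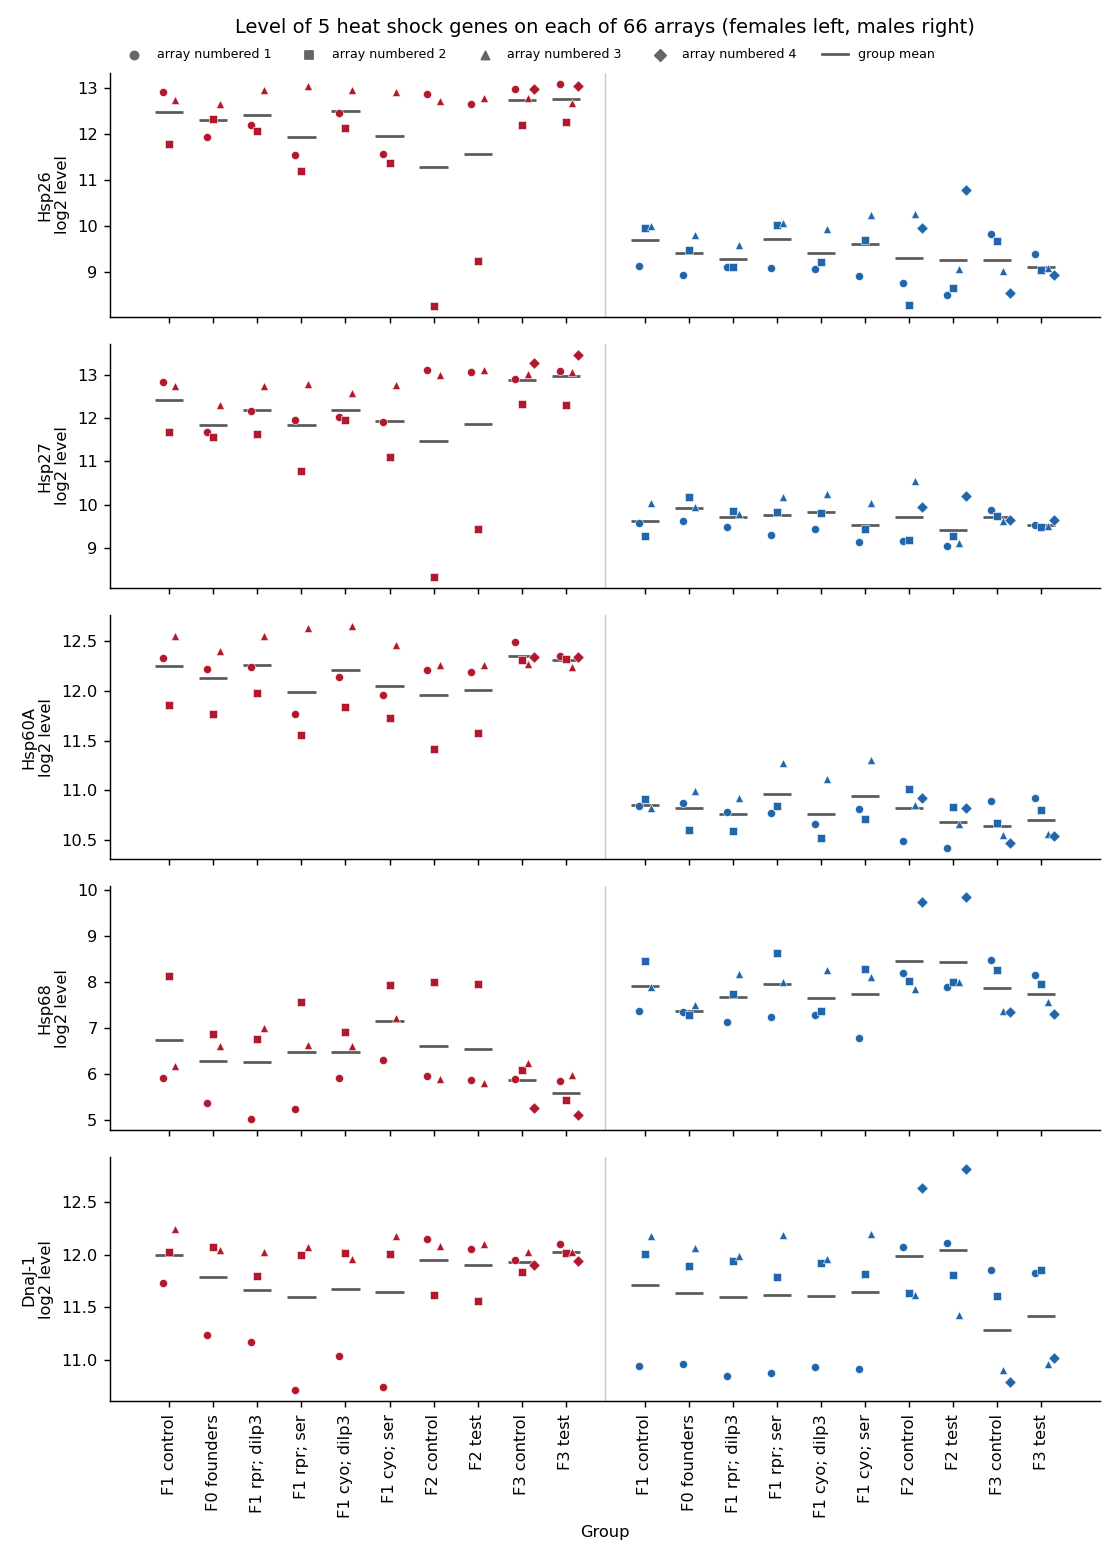
Level of each gene (y axes, log2) on each of the 66 arrays by group (x axis), with females in red on the left, males in blue on the right, the marker shape giving the array's replicate number and the line the group mean. Group means of Hsp26 run from 11.93 to 12.51 in F0 and F1 females and from 11.28 to 12.77 in F2 and F3 females. The arrays numbered 2 in F2 females stand apart from their groups. So do the arrays numbered 1 of DnaJ-1 in the F0 and F1, and those numbered 4 of Hsp68 and DnaJ-1 in F2 males.

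The order of the group means within a sex was set beside the spread of the arrays. In F0 and F1 females, Hsp26 was highest in cyo/+; dilp3/+ (12.51) and lowest in rpr/+; ser/+ (11.93), and Hsp27 was highest in controls (12.42) and lowest in rpr/+; ser/+ (11.84). Among F0 and F1 males, Hsp26 was highest in rpr/+; ser/+ (9.72) and lowest in flies with both constructs (9.27). For each of the 5 genes, 0 of the 5 neighbouring pairs in this order differed by more than the larger SD of the pair in either sex. In the F2 and F3, 1 of 3 neighbouring pairs did so for DnaJ-1 in males, with a gap of 0.58 between generations, and none for the other 4 genes or in females. Neighbours in a sorted list are the closest pairs, and the SD includes variation that went with replicate number. These counts therefore cannot show that the groups do not differ.

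Siblings with 1 construct or none were compared with the same controls. In males, 0 of the 5 genes were called for rpr/+; ser/+ (0.484% of entries called), cyo/+; dilp3/+ (0.282%) or cyo/+; ser/+ (0.396%), nor for flies with both constructs against the other 3 sibling groups (0.0792%). By limma 0 of the 5 genes reached an unadjusted p under 0.05 in any of the 8 male comparisons. In females, 0 were called for cyo/+; ser/+ (0.18%), and 0 had an unadjusted p under 0.05 by limma. Females of cyo/+; dilp3/+ gave the only called genes of the 16 comparisons within a sex, 4 of 5, where 20.4% of all entries were called.

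Those 4 calls came with group means that hardly differed. Hsp27 was 12.02, 11.95 and 12.57 in cyo/+; dilp3/+ females, within the control range of 11.68 to 12.84, and the difference of the means was -0.24, while the fit with batch as a term gave 2.58 ± 0.81 (adjusted p = 0.0302). Hsp26 was 12.45, 12.12 and 12.95, a difference of means of 0.03 and a fitted 2.52 ± 0.86 (adjusted p = 0.0426). Hsp60A was 12.14, 11.84 and 12.65, a difference of means of -0.04 and a fitted 0.77 ± 0.25 (adjusted p = 0.0329). Hsp68 was 5.91, 6.92 and 6.60, a difference of means of -0.27 and a fitted -2.20 ± 0.72 (adjusted p = 0.0364). All 4 genes overlapped between the groups. The first probe set shared by Hsp22 and CG4456 was called as well, at -1.98 ± 0.66 (adjusted p = 0.0383).

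These cyo/+; dilp3/+ arrays were labelled batch 3, 4 and 3 and the control arrays batch 1, 1 and 2, so the groups shared no batch and the batch term rested on other groups. Without a batch term 0 of the 4 genes were called, and 0 with replicate number added as a block, where Hsp27 was -0.62 and Hsp26 -0.61 (adjusted p = 0.658 and 0.698). When the F2 female arrays numbered 2 were left out, both labelled batch 3, the count was 0 and Hsp27 fell to 0.68 ± 0.52 (adjusted p = 0.527). No batch held both groups, so no value within a batch can be given.

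Females of rpr/+; ser/+, whose arrays carried the same batch labels, had 0 genes called against the control (8.55% of entries called) with a lowest adjusted p of 0.0592 for Hsp68. Against the 3 other sibling groups, females with both constructs had 0 called (9.67% of entries), with the lowest adjusted p of 0.0542 for Hsp27. In these comparisons too the fit and the group means differed: Hsp27 was -0.58 by means and 2.24 ± 0.81 by the fit in rpr/+; ser/+, and 0.20 by means and -1.99 ± 0.65 by the fit in the sibling comparison.

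**Figure D4:**
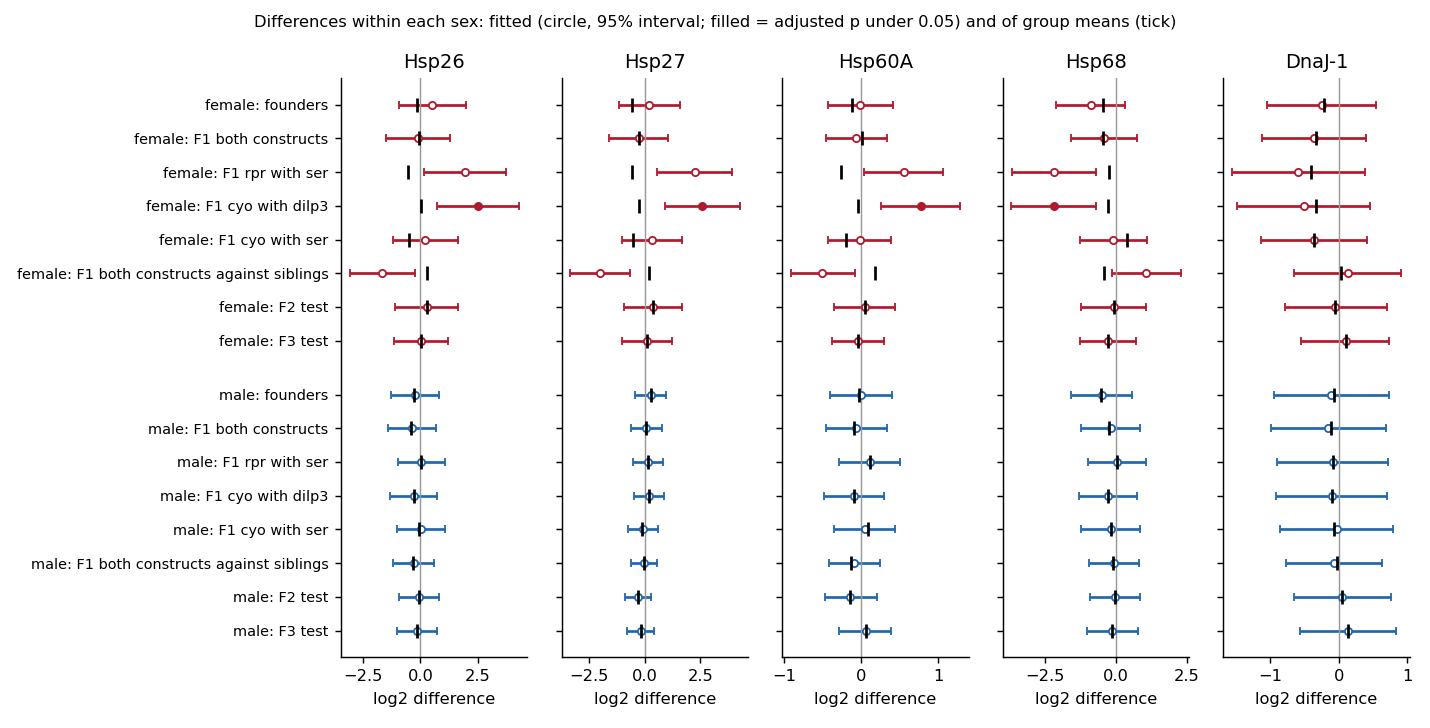
Difference from the F1 control, the other siblings or the control of the same generation (x axes, log2) in the 16 comparisons within a sex, as the fit with batch gives it (circles with 95% intervals, filled where the adjusted p was under 0.05) and as the group means give it (black ticks). The 4 filled circles are all in cyo/+; dilp3/+ females, where the ticks lie between -0.27 and 0.03.

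Descendants without constructs gave no called difference from their controls in any of the 5 genes. In F3 females Hsp26 was 13.09, 12.26, 12.68 and 13.05 in the test lineage, overlapping the controls given above, and Hsp27 was 13.08, 12.30, 13.05 and 13.45. Fitted test minus control differences in F3 females were 0.03 ± 0.57 for Hsp26 and 0.09 ± 0.54 for Hsp27. Without the F2 female arrays numbered 2, which share the fit, these F3 differences were 0.03 ± 0.31 and 0.09 ± 0.29. In F3 males the differences were -0.15 ± 0.43 and -0.18 ± 0.28. In F2 females they were 0.27 ± 0.66 and 0.39 ± 0.62, or -0.08 ± 0.44 and 0.04 ± 0.42 without the arrays numbered 2. In F2 males Hsp27 was -0.31 ± 0.28 over all arrays and 0.07 ± 0.28 without both arrays numbered 3.

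Within pairs of the same number some differences had 1 sign throughout. In F3 females Hsp68 was lower in the test array in 4 of 4 pairs (-0.64 to -0.04) and DnaJ-1 higher in 4 of 4 (0.00 to 0.18). In F3 males Hsp27 was lower in 4 of 4 (-0.33 to -0.02) and Hsp60A higher in 4 of 4 (0.01 to 0.13), while in F2 males Hsp60A was lower in 4 of 4 (-0.19 to -0.07). In F2 females Hsp68 was lower in 3 of 3 (-0.09 to -0.04). The smallest two-sided p that an exact test of 4 pairs allows is 0.125, and 0.25 for 3 pairs, and with the replicate block the adjusted p of each of these genes rounded to 1 by limma.

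In these descendants 0% of entries were called in F2 females, F3 females, F2 males and F3 males, with 20, 27, 97 and 54 entries at an unadjusted p under 0.05 by limma, and 0 of the 5 genes among them. The male minus female difference of the effect likewise had 0% of entries called in the F2 and 0% in the F3, with 20 and 19 entries at an unadjusted p under 0.05. Same-numbered test and control arrays resembled each other. Over all entries the correlation of their deviations from the group means ran from 0.92 to 0.97 in F2 females and from 0.45 to 0.78 in F3 females. The main fit leaves this pairing out, and its counts at an unadjusted p under 0.05 are below what chance alone gives. They are therefore not read as a lack of difference. With the replicate block, 0% of entries were called in the F2 and F3 of either sex. The standard error of Hsp26 in F3 females was then 0.24.

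Among the F0 and F1 arrays of 1 sex, most of the variation of DnaJ-1 went with replicate number. DnaJ-1 lay between 10.85 and 10.96 on all 6 male arrays numbered 1, between 11.79 and 12.01 on those numbered 2 and between 11.96 and 12.199 on those numbered 3. The males numbered 1 thus lay below every other F0 and F1 male, over all 6 genotypes. In females the array numbered 1 ran from 10.71 to 11.73 and the others from 11.80 to 12.24, again without overlap. Number added 98.0% of the variation of DnaJ-1 among these male arrays beyond the 0.5% that group gave, and 81.2% beyond 7.6% among the female arrays, where the medians over all tested entries were 22.6% and 33.9%. Hsp26, Hsp27, Hsp68 and Hsp60A lay above these medians too, so the pattern was not particular to DnaJ-1. For them number added 71.1%, 56.7%, 52.0% and 57.6% in males and 58.9%, 69.6%, 71.9% and 82.4% in females.

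Hsp68 shared part of the order of the DnaJ-1 levels, with the arrays numbered 1 lowest on average. It averaged 5.63 ± 0.49 on the female arrays numbered 1, 7.37 ± 0.59 on those numbered 2 and 6.71 ± 0.36 on those numbered 3 (SD, n = 6 each). The male arrays numbered 1 averaged 7.20 ± 0.22, those numbered 2 7.97 ± 0.57 and those numbered 3 7.99 ± 0.28. The probe set shared by Hsp70Aa and Hsp70Ab, 2 copies of the major heat-inducible Hsp70, moved further: in males it was 5.95 ± 0.36, 8.89 ± 0.48 and 9.06 ± 0.29, and in females 7.36 ± 0.85, 9.48 ± 0.41 and 9.12 ± 0.42. What the replicate numbers stand for is not given in the labels, and this description was made after the values were seen.

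**Figure D5:**
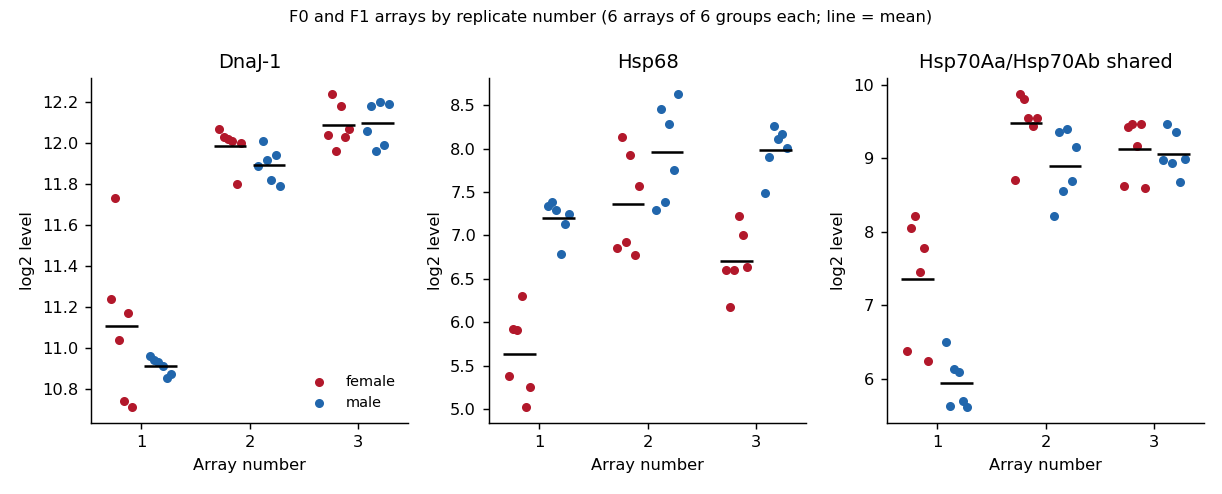
Level (y axes, log2) of DnaJ-1, Hsp68 and the probe set shared by Hsp70Aa and Hsp70Ab on the F0 and F1 arrays by replicate number (x axis), females in red and males in blue, with 1 point for each of 6 groups and a line at their mean. In both sexes all DnaJ-1 points of the arrays numbered 1 lie below those of the other numbers, with means of 11.11 in females and 10.91 in males.

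The males of later generations repeated such joint shifts within pairs of the same number. In the F2, the control and test arrays numbered 4 had Hsp68 at 9.73 and 9.84, against 7.85 to 8.20 on the other 6 arrays, DnaJ-1 at 12.63 and 12.82, against 11.43 to 12.11, and the shared Hsp70Aa and Hsp70Ab probe set at 10.44 and 11.75, against 6.64 to 9.001. In the F3, the male arrays numbered 3 and 4 had DnaJ-1 between 10.79 and 11.02, against 11.61 to 11.85 on those numbered 1 and 2, and the shared Hsp70Aa and Hsp70Ab set between 3.95 and 4.96, against 6.95 to 7.77. Each of these shifts held in the control and the test array alike. They are read against all entries, which also moved with number among the F2 and F3 male arrays. There number added a median of 60.4% of the variation over all tested entries. It added 77.4% for Hsp68, 62.7% for DnaJ-1 and 52.3% for the shared Hsp70Aa and Hsp70Ab set.

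The first of the 2 probe sets shared by Hsp22, a mitochondrial small heat shock protein, and CG4456 was not called between the sexes, with fitted differences of 0.11 ± 0.65, 0.02 ± 0.62 and 0.11 ± 0.58 in the F1, F2 and F3 controls. The second was higher in males in all 3 generations, by 3.03 ± 0.39, 2.90 ± 0.37 and 3.32 ± 0.35 (highest adjusted p = 6.89e-09). As both sets carry the same 2 names and disagree, neither can be assigned to Hsp22. In F0 and F1 females the first set averaged 11.42 ± 0.60 on the arrays numbered 2, which had the lowest ovary transcripts, against 9.63 ± 0.44 and 9.84 ± 0.33 on those numbered 1 and 3. All 5 Hsp70 probe sets were shared between copies of the gene. Of them, the set shared by Hsp70Aa and Hsp70Ab was lower in F3 control males, at -3.15 ± 0.93 (adjusted p = 0.00293), and the set shared by Hsp70Bb, Hsp70Bc and CG31343 was higher in F1 and F3 control males by 1.54 ± 0.34 and 1.11 ± 0.31 (adjusted p = 0.000177 and 0.00151).

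Other chaperone and co-chaperone genes were read from a list of 48, of which 37 had their own probe set, 35 were tested in females and 36 in males and in the sex comparisons. In the comparisons of founders and of F1 flies with both constructs with the control, and in the F2 and F3, 0 of them were called in either sex. With the replicate block, 1 was higher and 1 lower in founder females, where 3.26% of all entries were then called, and likewise in founder males, where 8.85% were. Between the sexes, 9 were higher and 16 lower in F1 control males, 9 higher and 19 lower in the F2, and 12 higher and 20 lower in the F3. These are 69.4%, 77.8% and 88.9% of the list, where 51.3%, 51.9% and 61.7% of all entries were called. The list's median change was -0.40, -0.46 and -0.67, where the median over all entries was -0.05, -0.04 and -0.02. Without the 3 F2 arrays that stand apart the counts were 12 higher and 17 lower, 11 and 18, and 12 and 20.

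Members higher in males included Hsp60B and Hsp60C, relatives of Hsp60A with roles in the testis, and CG9920, for which RefSeq gives no other gene symbol. In the F3 controls Hsp60B was 8.35 ± 0.29 in males and 2.35 ± 0.12 in females, Hsp60C 10.77 ± 0.23 and 2.35 ± 0.04, and CG9920 12.51 ± 0.23 and 2.23 ± 0.00 (SD, n = 4 each), with the females at or near the floor. The remaining relative, Hsp60D, named after its values were seen, was higher in males as well, with fitted differences of 3.66 ± 0.38, 5.31 ± 0.36 and 5.12 ± 0.34 in the F1, F2 and F3 controls (highest adjusted p = 2.07e-11). Lower in males were subunits of the cytosolic chaperonin TRiC: CCT2 was 10.22 ± 0.37 against 12.92 ± 0.11 in F3 controls, CCT4 8.78 ± 0.38 against 11.21 ± 0.05 and CCT5 9.72 ± 0.51 against 12.27 ± 0.04.

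In cyo/+; dilp3/+ females the fit called 10 of the list higher and 1 lower, 31.4% of the 35 tested against 20.4% of all entries. CG11267, which RefSeq also lists as Hsp10, the partner of Hsp60, was 1.28 ± 0.28 by the fit and 0.02 by the group means, and Gp93, the chaperone of the endoplasmic reticulum, was -0.98 ± 0.33 and -0.37. None of the list was called there with the replicate block or without the F2 female arrays numbered 2. In rpr/+; ser/+ females 2 were higher and 2 lower, with CCT1 at 0.95 ± 0.26 by the fit and -0.07 by the means, and in the sibling comparison 7 were lower. These are 11.4% and 20.0% of the list, against 8.55% and 9.67% of all entries. All these counts were 0 without the F2 female arrays numbered 2.

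The genes whose group means most resembled the mean of Hsp26 and Hsp27, over 20 groups centred within sex and within the F0 and F1 or the F2 and F3, were CG4476 (Pearson's r = 0.969), CG4570 (0.963) and wus (0.962). The points share arrays, and the 2 F2 female groups hold the low values described above. Group means of CG4476 ran from 2.30 to 9.99 and those of wus from 2.40 to 7.74, each with its lowest values near the floor of the scale.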

How the data were processed

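Whole adult flies of 20 groups were measured on 66 Affymetrix arrays. The deposited values are log2 levels per probe set, normalized with GCRMA per the submitters' processing notes, which also name limma 3.46.0 without its role. Whether all arrays were normalized together is not given in the sources used here. GCRMA, as usually run, adjusts for background and brings arrays to one distribution, so differences are relative. The deposited probe set levels did not share 1 median. Array medians ran from 3.25 to 4.16 in the F0 and F1 and from 3.3 to 4.5 in the F2 and F3. Arrays have no count depth, and their number per group limits the precision.

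Of 18952 probe sets, 183 controls were left out, and 13647 of the other 18769 had 1 gene symbol, 402 several and 4720 none. Each gene was read at its probe set of highest mean, which gave 17104 entries. Entries above the 40th percentile on at least 3 arrays were tested: 12809 in females, 11357 in males and 13420 in both sexes. Groups came from the labels. limma 3.58.1 (R 4.3.3) fitted all groups of a sex with the labelled batch as a term, and 1 fit of 66 arrays gave the comparisons between sexes. Benjamini-Hochberg adjustment ran over all tested entries, with calls at an adjusted p under 0.05, and errors after ± on fitted differences are standard errors. Means, ranges and exact permutation tests were computed with Python 3.11.15, numpy 2.4.6, pandas 2.3.3 and scipy 1.17.1.

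On simulated data for F1 flies with both constructs against the control, the fit recovered 30% of 100 entries changed by 1 and 73% of 100 changed by 2 on the log2 scale in females, and 50% and 95% in males, with 3 and 6 false calls. The noise was drawn independently for each array, while same-numbered real arrays often deviated together, as given below. The changed entries were picked at random, so these shares are not those of the 5 genes. The design text calls the samples biological replicates. Same-numbered arrays deviated together in every female comparison and in 5 of 7 male ones (lowest correlation 0.14), but not for male founders (lowest -0.07) or F1 males with both constructs (lowest 0), which is taken from the data and not the design. Alternatives covered the batch term, the replicate block, the groups in the fit, the filter, the normalization and leaving out each array, and 4 sets of arrays were left out after seeing the data. The genes, lists and tests were chosen with earlier results of these data known. Chaperones were named as the 3 of smallest adjusted p in each direction, with some of them left unnamed here. Likeness was measured to the mean of Hsp26 and Hsp27, because the other small heat shock genes planned for it had no probe set of their own. No sequences were used here.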

Additional observations from a re-analysis of the deposited data

Results flagged for a closer look

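Hsp68 on the array numbered 4 of the F2 test males was 9.84, far from the other 3 arrays of its group at 7.89 to 8.01, with a gap of 0.938 of the whole range of the group. The F2 control male array with the same number was 9.73. The 66 sets of 4 arrays examined are a few groups of arrays repeated over probe sets and are not independent, and 1 stood out in this way. Chance alone flags about 1 in 20 such sets.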

How the results depend on the processing

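Under the alternatives, 457 counts of called genes stayed within 1.5 times the reported count and 31 moved. All of the latter were in 4 comparisons. In cyo/+; dilp3/+ females the count of 4 became 0 without a batch term, with the replicate block, with batches numbered separately for the F0 and F1, with the groups alone, with F0 and F1 arrays only, with both sexes in 1 fit, and without the F2 female arrays numbered 2 (with or without the F2 male control array 3). It was 2 without a filter and 2 without the F0 and F1 arrays numbered 2, and 0 to 4 when 1 array was left out. Without those arrays numbered 2 the fitted differences of the 2 called genes were larger, at 3.90 ± 0.51 for Hsp27 and 4.16 ± 0.60 for Hsp26. In that setting 4724 of 12809 entries were called. In the same comparison Hsp27 reversed to -0.24 without a batch term and with the groups alone, and to -0.62 with the block. Hsp60A reversed to -0.04, -0.04 and -0.06 in those settings, and Hsp26 to -0.61 and Hsp68 to 0.07 with the block. For rpr/+; ser/+ females the count of 0 became 1 at the 60th percentile filter, 2 with quantile normalization and 3 without the F0 and F1 arrays numbered 2, and 0 to 1 with 1 array left out. Against the other siblings it became 1, 2 and 2 in those settings, and 0 to 1 with 1 array left out. Over all entries, 1065, 1542 and 4004 were called in those 3 settings for rpr/+; ser/+ females, against 1095 in the main fit. For the sibling comparison 1368, 1476 and 4065 were called, against 1239. Between the sexes in F2 controls the count of 4 became 1 with the groups alone, 2 with F2 and F3 arrays only and 1 to 4 with 1 array left out. The cause was not tested. Entries called in cyo/+; dilp3/+ females numbered 2614, and 15 without a batch term, 85 with the block and 221 without the F2 female arrays numbered 2. Among the 5 genes the replicate block changed no other call, except that it added Hsp68 between the sexes in F1 controls, at 1.08 (adjusted p = 0.0164). In the chaperone list it called genes where none had been, while the share of all entries called rose as well. These were 1 higher and 1 lower in founders of each sex (3.26% of all entries called in females and 8.85% in males). They were 2 and 1 in cyo/+; ser/+ females (4.93%) and 1 and 0 in such males (4.14%). The block moved the F1 sex counts to 11 and 20, with 56.6% of all entries called. A second probe set gave no value, because each gene has 1.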
